A study of Danio rerio with 12 samples.

Results

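Accessible chromatin was compared between 2 stages of zebrafish (Danio rerio) embryos that developed in all-trans retinoic acid (atRA), which embryos make from vitamin A as a signal. Of the 12 libraries of the series, 4 made up the comparison, which are 2 labelled 12 somites and 2 labelled 24 hours post fertilization (hpf). All were wild-type whole embryos freed of yolk and egg envelope, and all had been placed in 0.1 µM atRA at 80% epiboly. Embryos of the matching DMSO groups, which received the solvent alone from the same stage, gave 4 further libraries. The remaining 4 libraries came from embryos collected at 80% epiboly after DMSO or 0.1 µM atRA from 30% epiboly. The labels do not give the number of embryos per library, nor whether replicates came from separate clutches, so spread between replicates may be technical. Whole embryos mix all cell types, so a change in the number of cells of a type and a change within those cells cannot be told apart.

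ATAC-seq, in which a transposase cuts and tags the DNA it can reach, reads out open chromatin, and open sites are often promoters and enhancers. Retinoic acid binds nuclear receptors that sit on DNA as heterodimers of a retinoic acid receptor and a retinoid X receptor, and changes which co-regulators they recruit. In vertebrate embryos it is made in the trunk mesoderm and degraded at the head and tail, and it helps to pattern the hindbrain, the spinal cord and the somites. At 12 somites the zebrafish trunk is still being segmented. By 24 hpf segmentation is close to complete, the heart beats, the first neurons and muscle fibres are functional and pigment appears.

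The lists of the 4 atRA libraries held 272915 and 239473 peaks at 12 somites and 192137 and 163454 at 24 hpf on chromosomes 1 to 25. Fragment totals are unknown. The background pileup recovered from each list, used as a measure of depth, was 1.6 and 1.44 fragments at 12 somites and 2.03 and 1.98 at 24 hpf. Depth and peak number thus ran in opposite directions between the stages. Peaks of rank 50000 had a −log10 p of 17.5 and 16.3 at 12 somites and of 11.1 and 10.1 at 24 hpf, so equal ranks stand for weaker peaks at the later stage. Among the DMSO libraries, background pileups were 0.69 and 1.15 at 12 somites and 1.39 and 2.03 at 24 hpf. Peak names of both 24 hpf DMSO lists carry a word that no other list has, and whether it marks a batch is not stated.

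Peaks were ranked within each list by the authors' −log10 p, and the merged best 50000 peaks of the 4 atRA libraries gave 76967 regions. A region counted as opened if it had a top-50000 peak in both 24 hpf libraries and no top-100000 peak in either 12 somites library, and as closed in the reverse case. By this rule 1068 regions opened (1.39% of those tested) and 1520 closed (1.97%). In −log10 p the rule asked less of opened regions. They had to reach 11.1 and 10.1 at 24 hpf and stay at or below 10.4 and 9.37 at 12 somites. Closed regions had to reach 17.5 and 16.3 at 12 somites and stay at or below 6.69 and 6.16 at 24 hpf. The counts of opened and closed regions thus stand for unlike changes and are not compared. A top-50000 peak in all 4 libraries was held by 28541 regions, 37.1% of the total. These counts describe the libraries that chose the regions and carry no test. Without any one of the 4 libraries, fewer lists have to meet the rule, and the counts rose to between 1946 and 3545 opened and between 2908 and 3708 closed regions.

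Many members kept a weaker peak at the other stage. In the 12 somites atRA lists, 680 of the 1068 opened regions had a weaker peak in both, and 171 had none in either. Of the 1520 closed regions, 335 kept a peak in both 24 hpf atRA lists and 570 had none in either, in lists that are shorter than those of 12 somites. By single list, 76.9% and 70.8% of opened regions had a peak in 12 somites atRA, against 97.7% and 97.0% of all regions. In 24 hpf atRA, 49.5% and 35.0% of closed regions had one, against 93.2% and 90.8% of all regions. The rule excluded top-100000 peaks at the other stage, so it favours weaker and missing peaks there. The median opened region had a worse rank of 40187 in its 2 open libraries, and the median closed region one of 39937. For regions in the top set of all 4 libraries the median was 18872 at 24 hpf and 18721 at 12 somites, a difference that the rule itself favours. The last opened region inside the threshold, chr9:26486718-26487051, ranked 49999 and 39413 at 24 hpf, and the last closed one, chr16:48672342-48672639, ranked 40295 and 49991 at 12 somites. For 187 opened and 246 closed regions the best rank at the other stage lay within 10000 places past the limit of 100000. Just outside, 334 regions would have opened and 306 closed but for a best rank at the other stage within 10000 places short of that limit.

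The DMSO libraries took no part in choosing these regions and show how the same sites behaved without added retinoic acid. Of the regions that opened in atRA, 5.15% and 3.37% had a top-50000 peak in the 12 somites DMSO libraries, and 50% and 53.3% had one in the 24 hpf DMSO libraries. Both libraries of the later stage thus lay far above both of the earlier stage. Of the regions that closed in atRA, 57.8% and 65.3% were in the top set at 12 somites in DMSO and 11.6% and 9.47% at 24 hpf, again with no overlap. Over all 76967 regions the shares were 53.1% and 57.0% at 12 somites and 58.8% and 59.1% at 24 hpf in DMSO.

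**Figure D1:**
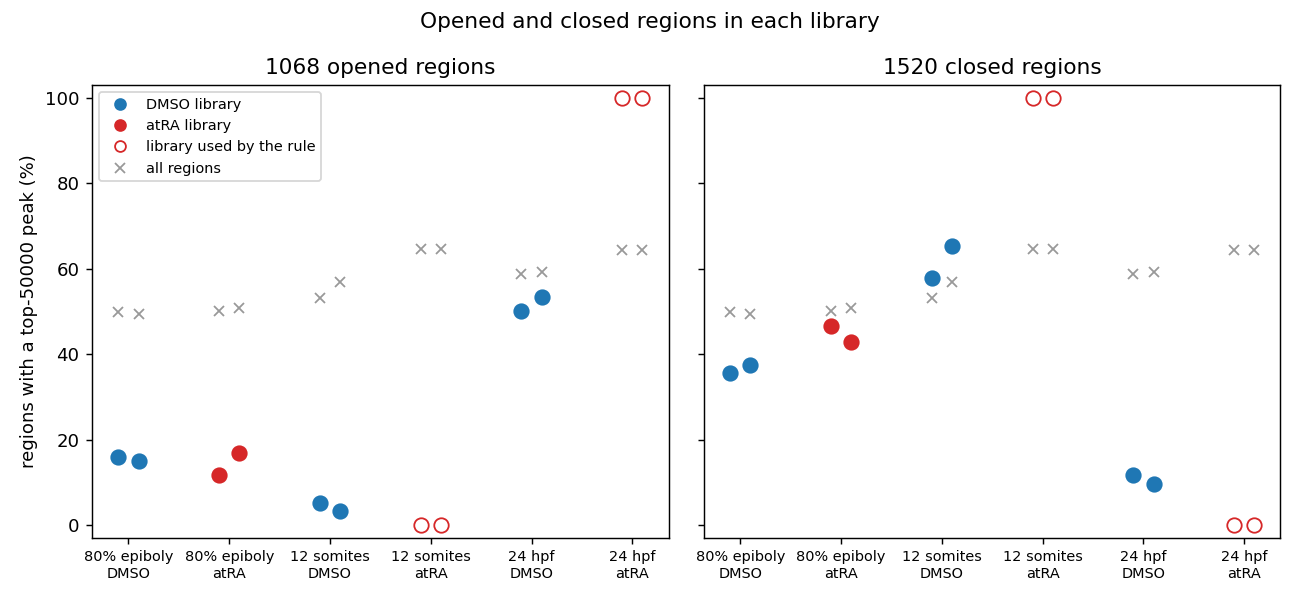
The y axis gives the percentage of regions with a top-50000 peak in each library, with 1 point per library, for the opened (left) and closed (right) regions, and crosses give the same for all 76967 regions. Hollow points are the libraries that the rule used. The 24 hpf DMSO points stand at 50% and 53.3% for opened regions, above those of all earlier libraries, and at 11.6% and 9.47% for closed regions, below all earlier libraries.

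The mean share of opened regions in the top set was 51.6% ± 2.32 (SD, n = 2) at 24 hpf and 4.26% ± 1.26 (SD, n = 2) at 12 somites in DMSO, a difference of 47.4 percentage points. For closed regions the means were 10.5% ± 1.49 and 61.6% ± 5.30, a difference of -51.1 points. The opened difference was 23.8 points without replicate 1 and 26.5 points without replicate 2 of 24 hpf atRA in the choice of regions, and the closed difference was -33.0 points without replicate 2 of 12 somites atRA. With 2 libraries against 2, the exact two-sided permutation test cannot give a p below 0.333, the value found in both cases. A contrast that allows a smaller p set the 24 hpf DMSO libraries against the 6 earlier libraries outside the rule, from both treatments at 80% epiboly and from DMSO at 12 somites. Its labelings treat all these libraries as exchangeable, although they are replicate pairs of different stages and treatments. Its p therefore does not measure spread between embryos of a group. Opened regions were in the top set of these 6 libraries at 11.3% ± 5.76 (SD, n = 6), 40.3 points below 24 hpf and 19.1 or 21.7 points below it without replicate 1 or 2 of 24 hpf atRA (two-sided exact permutation test, p = 0.0357, which is the least that 28 labelings allow). Closed regions stood at 47.6% ± 11.8 (SD, n = 6) there, 37.0 points above 24 hpf (exact permutation, two-sided, p = 0.0357). Both 24 hpf libraries lay beyond all 6 others in each case. Of all regions, 49.5% to 57.0% were in the top set of the 6 earlier libraries and 58.8% and 59.1% in that of 24 hpf DMSO. Opened regions, at 50% and 53.3%, were thus below the background at 24 hpf as well. Their contrast lies in shares farther below it in the earlier libraries, which the rule favours at 12 somites. Adjusted over the 4 tests by the Benjamini-Hochberg method, the exact p was 0.0714 for both and did not pass 0.05.

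The same rule was applied to the DMSO libraries alone. Between 12 somites and 24 hpf, 1792 of 81794 regions opened in DMSO (2.19%) and 1476 closed (1.8%). Regions opened in both treatments numbered 229, which is 21.4% of those opened in atRA and 12.8% of those opened in DMSO. Regions closed in both numbered 267, or 17.6% of the atRA list and 18.1% of the DMSO list. These 2 comparisons share no library. No region that opened in atRA closed in DMSO, and 3 that closed in atRA opened in DMSO.

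With the wider limit of 100000, opened regions were close to the background at the stage of opening. Of the 1068 regions opened in atRA, 845 (79.1%) were in the top 100000 of both 24 hpf DMSO libraries, against 76.95% of all regions, and 58 (5.43%) were in the top 100000 of neither, against 8.97% of all regions. Already at 12 somites, 4 of the opened regions (0.375%) had a top-50000 peak in both DMSO libraries, against 44.31% of all regions. Of the 1520 regions closed in atRA, 1174 (77.2%) were in the top 100000 of both 12 somites DMSO libraries, against 67.45% of all regions, and 59 (3.88%) of neither, against 13.35%. A top-50000 peak remained in both 24 hpf DMSO libraries at 58 closed regions (3.82%), against 49.14% of all regions.

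The regions that DMSO embryos opened were seen more often at 12 somites in atRA than the other way round. Of the 1792 regions opened in DMSO, 15.0% and 14.3% had a top-50000 peak in the 12 somites atRA libraries, and 54.1% and 53.0% a top-100000 peak. Of the 1068 opened in atRA, 5.15% and 3.37% had a top-50000 peak in the 12 somites DMSO libraries, and 21.2% and 24.8% a top-100000 peak. For closed regions the 24 hpf shares in the other treatment were 5.22% and 5.28% of the DMSO list in atRA and 11.6% and 9.47% of the atRA list in DMSO. Background pileup at 12 somites was 1.6 and 1.44 in atRA against 0.69 and 1.15 in DMSO, and the part of this difference in the shares was not tested. Of all 76967 regions of the atRA comparison, 53.1% and 57.0% had a top-50000 peak in 12 somites DMSO, and 73.6% and 80.5% a top-100000 peak. Such shares were not computed for the 81794 regions of the DMSO comparison. No earlier opening in atRA is therefore read from these values.

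Agreement with DMSO was highest for the strongest members. Of the 32 opened regions with a worse rank up to 10000 at 24 hpf in atRA, 25 (78.1%) were also called opened in DMSO, and 96.9% and 90.6% had a top-50000 peak in the 24 hpf DMSO libraries. Of the 102 next in rank, down to 25000, 37 (36.3%) were called in DMSO as well, and of the 934 weaker ones 167 (17.9%). Closed regions called in both treatments gave the same order, at 14 of 20, 50 of 160 and 203 of 1340. Every one of the 20 strongest closed regions had a top-50000 peak in both 12 somites DMSO libraries. In the weakest class those shares were 53.4% and 62.0%. Weaker members also lie nearer the rank limit of the top set, which is the same in both treatments. Shares for all regions of equal rank were not computed. Whether the order is particular to opened and closed regions was therefore not tested.

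**Figure D2:**
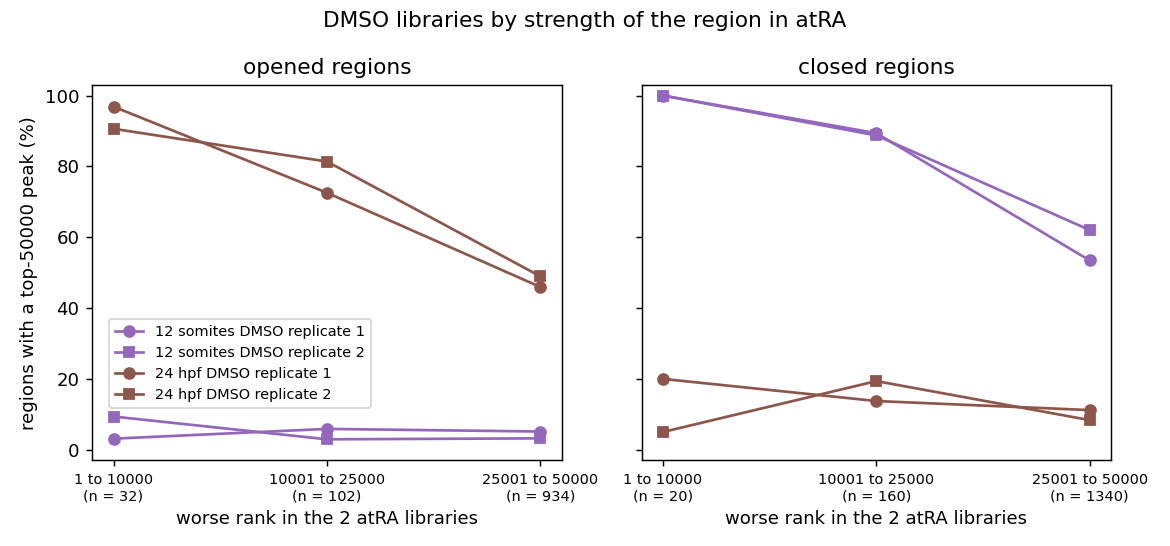
The x axis groups opened (left) and closed (right) regions by their worse rank in the 2 atRA libraries that had them, and the y axis gives the percentage with a top-50000 peak in each DMSO library of 12 somites and 24 hpf. For opened regions the 24 hpf DMSO lines fall from 96.9% and 90.6% to 45.9% and 48.9%, while the 12 somites lines stay between 2.94% and 9.38%.

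The opened region of best rank, chr2:31732176-31732495, was among the strongest peaks of the whole genome at 24 hpf. It ranked 4 in both 24 hpf atRA lists and 5 and 6 in the DMSO lists of that stage, with summit pileups of 108 and 121 fragments in atRA and 107 and 92 in DMSO. None of the 8 lists from 80% epiboly and 12 somites had a peak there, so the groups did not overlap. The labels give no strain or clutch, and a missing peak cannot be told apart from sequence that those embryos lacked or that reads could not be mapped to. A neighbour, chr2:31731432-31731602, had the same pattern at lower ranks, 1490 and 1153 in atRA and 4988 and 26144 in DMSO. No annotation of the genome build was used here, so regions are named by position and not by gene.

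Of the 8 best opened regions, 6 had no peak in any of the 8 lists before 24 hpf. Besides the pair on chromosome 2 these were chr4:49911210-49911758, chr7:4126415-4126819, chr7:4118415-4118773 and chr11:15278424-15278808. The region on chromosome 4 ranked 529 and 710 in 24 hpf atRA and 8482 and 18227 in 24 hpf DMSO, with pileups of 85 and 80 against 52 and 42. The region on chromosome 11 ranked 458 and 2447 in atRA but 46141 and 27254 in DMSO, with pileups of 56 and 44 against 17 and 28. It was present in all 4 libraries of the stage, and since the atRA ranks chose it, no difference between treatments is read from them.

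The other 2 of the 8 had been accessible at 80% epiboly. At chr7:4132863-4133502, ranks were 49973 and 70137 in 80% epiboly DMSO, 39600 and 83563 in 80% epiboly atRA and 89796 and 44760 in 12 somites DMSO. In 12 somites atRA the region ranked 121133 in replicate 1 and had no peak in replicate 2. At 24 hpf it rose to 527 and 423 in atRA and to 383 and 4474 in DMSO. At chr4:43688863-43689422, peaks at ranks 36901 to 81070 were present in all 4 libraries at 80% epiboly, none in any of the 4 at 12 somites, and peaks at ranks 2514 and 2777 in atRA and 41175 and 41140 in DMSO at 24 hpf.

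The best closed region, chr4:72292144-72292433, ranked 2963 and 3165 in 12 somites atRA and 4659 and 1090 in 12 somites DMSO, with pileups of 55 and 54 in atRA and 27 and 56 in DMSO. None of the 4 lists at 24 hpf had a peak there. Neither did the 80% epiboly DMSO lists, which hold 433132 and 439137 peaks, whereas 80% epiboly atRA had it at ranks 17659 and 100478. A pair of regions on chromosome 3, chr3:60196505-60196859 and chr3:60111429-60111744, shared this pattern, with ranks of 3989 and 31127 and of 12598 and 39515 in 80% epiboly atRA. A further one, chr12:47650588-47650856, ranked 4103 and 3411 in 12 somites atRA and 2083 and 3362 in DMSO and had 1 weak peak at 80% epiboly, of rank 146016 in atRA replicate 1.

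Among the remaining best closed regions, some were present at 80% epiboly in both treatments. At chr13:44057149-44057462, ranks were 17294 and 7535 in 80% epiboly DMSO, 12941 and 3323 in 80% epiboly atRA, 5225 and 4507 in 12 somites DMSO and 2475 and 4817 in 12 somites atRA, followed by no peak at 24 hpf in either treatment. At chr10:43460941-43461234 the 80% epiboly ranks ran from 617 to 6659 and the 12 somites ranks from 4814 to 8334. This site faded and did not vanish, with ranks of 74853 and 81315 in 24 hpf DMSO, 130720 in replicate 2 of 24 hpf atRA and none in its replicate 1. At chr2:15285429-15285823, ranks were 370701 and 283135 in 80% epiboly DMSO, 48045 and 4986 in 80% epiboly atRA, 14794 and 5856 in 12 somites DMSO and 5035 and 1727 in 12 somites atRA, and the only 24 hpf peak ranked 103740. The region chr14:14405095-14405611 ranked 5983 and 3021 in 12 somites atRA, 2750 and 3983 in 12 somites DMSO and 227899 in the single 24 hpf list that held it.

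**Figure D3:**
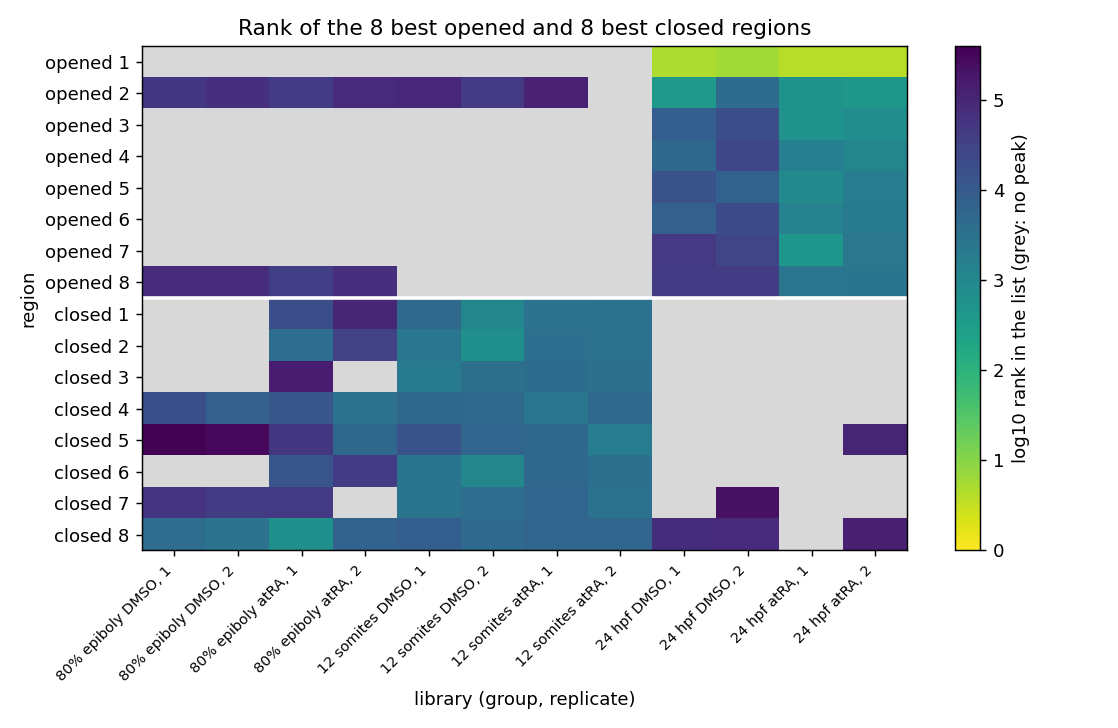
Each row is 1 of the 8 best opened or 8 best closed regions, numbered by worse rank, and each column a library; the colour gives the log10 rank of its peak and grey marks a list without a peak. Opened region 1 stands at rank 4 to 6 in all 4 libraries of 24 hpf and is grey in all 8 earlier ones. Closed regions 1 to 4 and 6 are grey in all 4 libraries of 24 hpf.

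Some members were in the top 100000 of the atRA libraries of their stage alone. Over all regions, 1419 of 76967 (1.84%) were in the top 100000 of none of the 8 libraries outside the rule. Of the 1068 opened regions, 34 (3.18%) were in the top 100000 of no library other than the 2 of 24 hpf atRA, and 2 had no peak in any other list. The best of the 34 was chr12:14427743-14428276, with ranks of 4428 and 16537, pileups of 64 and 35 and 1 other peak in the series, of rank 115361 in 24 hpf DMSO replicate 2. The next, chr4:39279356-39279551, ranked 22085 and 17687 with pileups of 27 and 29 and had no peak in the other 10 lists. The third, chr7:35771731-35772149, ranked 10449 and 22948 and had weak peaks at ranks 162410 to 270097 in 4 other lists.

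Of the 1520 closed regions, 20 (1.32%, against the same 1.84% of all regions) were in the top 100000 of no library other than the 2 of 12 somites atRA, and each of them had a peak somewhere else. At chr13:7685567-7685964 the ranks were 7230 and 19638 with pileups of 50 and 33, and the only other peak ranked 195177 in 24 hpf DMSO replicate 2. At chr4:10757128-10757425 they were 27644 and 28855, and the best of 4 other peaks ranked 141503, in 12 somites DMSO replicate 2. At chr18:15620625-15620874 they were 30381 and 27390, and the best of 6 other peaks ranked 121244, in 24 hpf DMSO replicate 1. Being picked as extremes, these regions have no test.

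The state at 80% epiboly, which the rule did not use, differed between the directions. Of the opened regions, 778 (72.8%) had a top-50000 peak in none of the 4 libraries of 80% epiboly and 59 (5.52%) in all 4. Of the closed regions, 601 (39.5%) had one in none and 357 (23.5%) in all 4. Over all regions these shares were 35.2% and 36.0%. Opened regions were in the top set of 80% epiboly libraries at 15.8% and 15.0% in DMSO and 11.8% and 16.9% in atRA. All lay above the 5.15% and 3.37% of 12 somites DMSO. Opened regions were chosen for lacking a top-100000 peak at 12 somites in atRA, so the rule favours low shares at that stage. No closing and reopening of sites is therefore read from this order. The 12 somites DMSO libraries were also shallower than all but 1 of the 4 of 80% epiboly. Their background pileups were 0.69 and 1.15 against 3.18, 3.28, 2.47 and 0.87, and the part of depth was not tested.

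Closed regions were in the top set at 35.5% and 37.4% in 80% epiboly DMSO and at 46.6% and 42.8% in 80% epiboly atRA. Both atRA libraries lay above both DMSO libraries, a difference for which 2 libraries against 2 allow no exact p below 0.333. Background pileups there were 3.18 and 3.28 in DMSO and 2.47 and 0.87 in atRA, and their part in this difference was not tested. Of all regions, 49.8% and 49.5% were in the top set of these DMSO libraries and 50% and 50.7% in that of the atRA libraries.

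**Figure D4:**
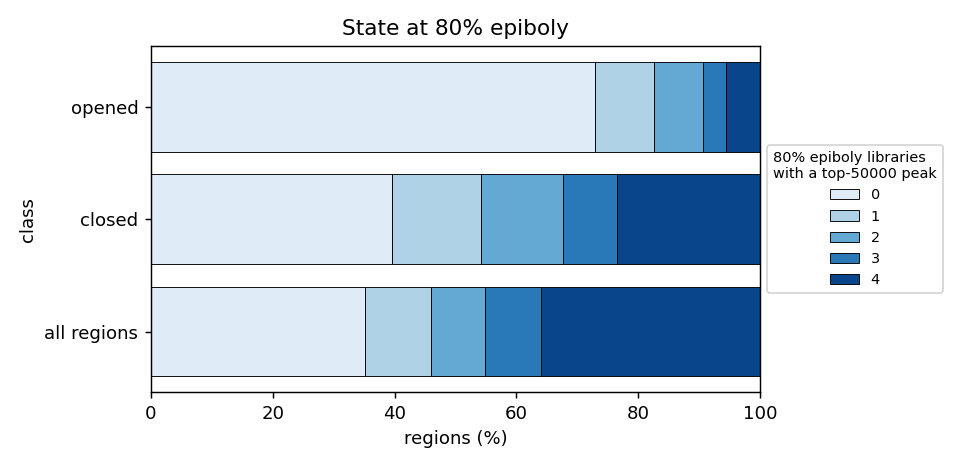
Bars divide opened, closed and all regions by the number of 80% epiboly libraries, from 0 to 4, in which they have a top-50000 peak, as a percentage of regions. Opened regions fall mostly in the class of 0 libraries (72.8%), against 39.5% of closed and 35.2% of all regions.

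Opening and closing were unevenly spread along chromosomes. With chromosome 4 set apart, regions within 10% of the chromosome length of an end opened in 152 of 16782 cases (0.906%), and regions between 40% and 50% of the length from an end opened in 333 of 15648 (2.13%). The 3 classes between rose in order, at 0.98%, 1.22% and 1.35%. Closing ran the opposite way, from 445 (2.65%) near the ends through 2.22%, 2.05% and 1.70% to 168 (1.07%) in the middle. The regions called in the DMSO libraries, which are separate libraries, gave the same order, with 1.15% opened near the ends and 3.75% in the middle, and 2.69% and 0.756% closed. The excess of opened regions in the middle was 1.22 points in atRA and depended on how strictly regions were chosen: it was 0.0501 points with top sets of 20000 and 0.00828 points where a region had to lack any peak at the other stage.

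The whole top sets moved with stage in the same way. In 12 somites atRA, 19.0% and 19.3% of top-50000 peaks lay in the middle class, against 22.2% and 22.8% at 24 hpf. In DMSO the values were 16.9% and 17.7% at 12 somites and 22.2% and 22.5% at 24 hpf. Within both treatments both 24 hpf libraries lay above both 12 somites libraries. At 80% epiboly the values were 21.0% and 20.5% in DMSO and 17.1% and 18.6% in atRA.

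**Figure D5:**
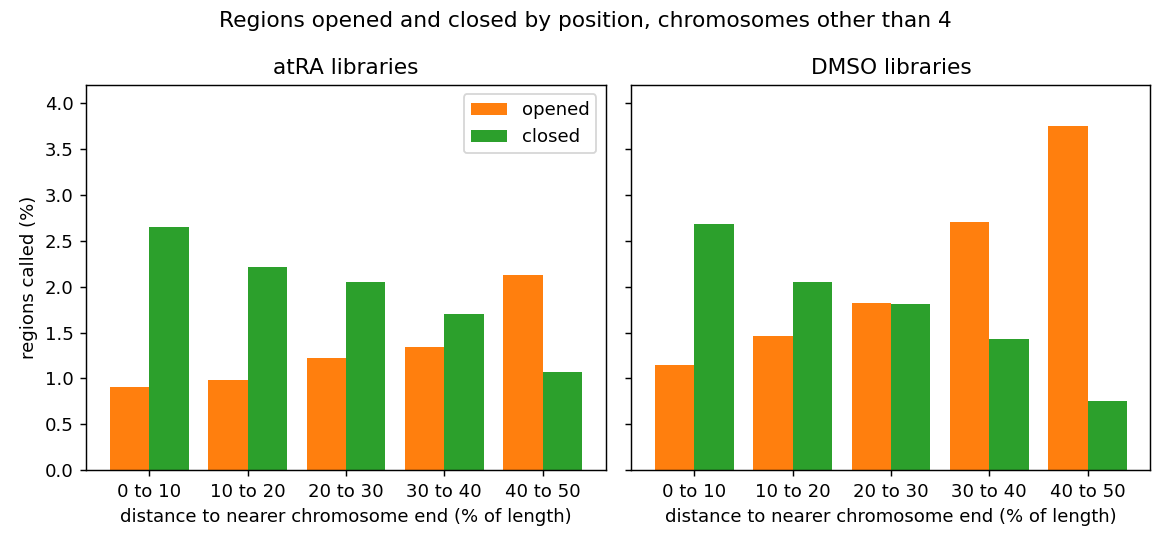
Bars give the percentage of regions opened and closed in 5 classes of distance to the nearer chromosome end, in percent of chromosome length, for atRA (left) and DMSO (right) libraries. From ends to middle, opened regions rise from 0.906% to 2.13% in atRA and from 1.15% to 3.75% in DMSO, and closed regions fall from 2.65% to 1.07% and from 2.69% to 0.756%.

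Stretches of 10 Mb with many opened regions in atRA were also those with many in DMSO. Over 140 stretches with at least 100 regions in each treatment, the percentage opened in atRA and in DMSO had a Pearson r of 0.672 and a Spearman rho of 0.572, and the percentage closed had 0.801 and 0.691. Stretches share their region density and sequence composition between treatments, so these are descriptions. The highest share opened among them was on chromosome 23 between 20 and 30 Mb, where 34 of 688 regions opened and 1 closed in atRA, and 73 of 662 opened and none closed in DMSO. Among these stretches closing was most frequent between 70 and 80 Mb of chromosome 4, at 21 of 248 regions, and next at the start of chromosome 3, where 31 of 433 regions closed in the first 10 Mb (7.16%), against 6.55% in DMSO.

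Chromosome 4 had the highest percentage of both opened (84 of 2404, 3.49%) and closed regions (71, 2.95%) of the 25 chromosomes. Its part beyond 30 Mb, which takes in its gene-poor, repeat-rich long arm, accounted for most of this. There, 44 of 545 regions opened (8.07%) and 52 closed (9.54%) in atRA, and 25 (4.37%) and 48 (8.39%) of 572 in DMSO. Before 30 Mb the atRA values were 2.15% and 1.02%. The part beyond 30 Mb held 0.574% and 0.56% of the top set in 12 somites atRA and 0.55% and 0.562% in 24 hpf atRA. Some of its regions were thus called in each direction while its share of strong peaks stayed within 0.55% to 0.574% in atRA. In DMSO its share was 0.766% and 0.632% at 12 somites and lower, at 0.502% and 0.468%, at 24 hpf. How reads that match repeats at several places were handled is not given in the sources used here. The lowest percentages opened were on chromosomes 10 (0.777%), 19 (0.849%) and 1 (0.878%), and chromosome 1 followed chromosome 4 in closing (2.86%).

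Some opened regions stood in tight groups. Of the opened regions, 105 (9.83%) lay within 10 kb of another opened region, and 21 (1.97%) within 10 kb of a closed one. For closed regions, 70 (4.61%) lay within 10 kb of another closed region and 20 (1.32%) within 10 kb of an opened one. Regions in the top set of all 4 libraries lay within 10 kb of an opened region in 2.18% of cases and of a closed region in 2.02%.

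The 100 kb window with most opened regions, chr15:14300001-14400000, held 8 of them among 13 regions and none that closed. All 8 lacked a peak in all 4 lists of 12 somites, and 5 of them also in the 4 lists of 80% epiboly. The strongest, chr15:14313769-14313990, ranked 3395 and 709 in 24 hpf atRA, 3201 and 10866 in 24 hpf DMSO, and 57246 to 187363 at 80% epiboly. The next window, chr7:4100001-4200000, held 7 of 13 regions, among them 3 of the 8 best opened regions, and 4 of the 7 had a top-50000 peak in both 24 hpf DMSO libraries.

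In the third window, chr1:27500001-27600000, 6 of 7 regions opened in atRA, and none had a peak in any list before 24 hpf. None of the 6 had a top-50000 peak in both 24 hpf DMSO libraries. Its strongest region, chr1:27583388-27583634, ranked 6625 and 4937 in atRA and 51013 and 53636 in DMSO. Another, chr1:27570901-27571075, ranked 31590 and 14967 in atRA and had no peak in either DMSO list of that stage. The atRA ranks chose these regions, so their difference from the DMSO ranks is no measure of a treatment effect.

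Windows of 100 kb held at most 4 closed regions. Windows with at least 3 members numbered 21 for either direction, and 29.6% of closed and 30.8% of opened regions lay within 100 kb of another of their kind. Regions in the top set of all 4 libraries lay within 100 kb of a closed region in 19.55% of cases and of an opened region in 16.7%. In chr2:56200001-56300000, 4 of 12 regions closed in atRA and 4 in DMSO. The best of them, chr2:56281278-56281649, ranked 7156 and 6731 in 12 somites atRA and 6735 and 1984 in 12 somites DMSO and had no peak in any 24 hpf list. In chr1:52700001-52800000, 4 of 10 regions closed in atRA and none in DMSO. Its best region, chr1:52771975-52772373, ranked 24678 and 21559 in 12 somites atRA, 49760 and 51934 in 12 somites DMSO, 170518 and 118409 in 24 hpf atRA and 49519 and 87488 in 24 hpf DMSO. In chr1:57300001-57400000, 4 of 10 regions closed in atRA and none in DMSO, although 3 of the 4 had no peak in either 24 hpf DMSO list. Their ranks in 12 somites DMSO, from 15563 to 159760, were spread across the limit of 50000.

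Opened regions were narrower than the median of all regions, and closed regions were near it, but width also differed between the lists of the stages. Single top-50000 peaks had a median width of 285 and 266 bp in 24 hpf atRA and of 317 and 310 bp in 12 somites atRA. The narrower width is therefore not read as a trait of opened regions. The median width was 314 bp (247 to 410) over all regions, 272 bp (interquartile range 221 to 354) for opened regions, 303 bp (255 to 363) for closed regions and 390 bp (313 to 493) for regions in the top set of all 4 libraries. None of the opened or closed regions reached 1 kb, and 99 regions of the third kind did. The median distance to the nearest region in the top set of all 4 libraries was 14.2 kb for opened and 20.2 kb for closed regions, against 12.6 kb over all regions. Peak width follows signal and depth in a peak caller, so widths are given as a description.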

How the data were processed

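Peak lists in narrowPeak format were deposited by the authors, 1 per library, so replicates were not pooled. Per the submitters' processing notes, Bowtie2, SAMtools and MACS2 were used with the build GRCz10 (danRer10); versions, settings, read shift and fragment filter are not given in the sources used here. Each list holds the authors' fold enrichment (a ratio of the summit to the background of the same library), −log10 p-values, −log10 q-values, a score and the summit position. Deposited scores and summits were not used for the main results.

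Peaks on chromosomes 1 to 25 were ranked by −log10 p, then fold, then position. Overlap meant at least 1 bp. Summit and background pileups were solved from fold and p, taking p as a Poisson tail, with whole-number pileups within 0.001 for 99.95% to 100% of peaks. Chromosome length was taken as the end of the last peak in any list. Exact permutation tests compared library means. Python 3.11.15, numpy 2.4.6 and pandas 2.3.3 were used, and the calling was checked on simulated lists. Replicate numbers were not used to pair the libraries in the main tests. Named regions were the 8 best of each direction by worse rank, the best 3 without a peak at the other stage, the best 3 without top-100000 peaks in other groups, and the 3 densest 100 kb windows. Regions called in opposite directions in DMSO and single members of windows were picked after their values were seen. Members and lists were chosen with earlier results of these data known. No genome or annotation of the build was used.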

Additional observations from a re-analysis of the deposited data

Results flagged for a closer look

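At 3 regions the rule called closing in atRA and opening in DMSO between the stages. They were picked by these calls, so the agreement of replicates follows from the choice, and the difference was not tested. The region of chromosome 24 from 41409480 to 41409733 ranked 19982 and 25104 in 12 somites atRA and 155688 in 1 of the 24 hpf atRA lists, while neither 12 somites DMSO list had it and 24 hpf DMSO ranked it 30642 and 20667. The region of chromosome 24 from 24572648 to 24572839 ranked 43319 and 39555 in 12 somites atRA and 108142 in 1 list at 24 hpf, against 125141 in 1 list of 12 somites DMSO and 22056 and 40604 at 24 hpf. The region of chromosome 3 from 17472512 to 17472785 ranked 42538 and 46835 in 12 somites atRA and 150937 in 1 list at 24 hpf, against 144524 in 1 list of 12 somites DMSO and 36033 and 49043 at 24 hpf. They are 3 of the 1520 closed regions. Of all 81794 regions of the DMSO comparison, 1792 (2.19%) were called opened. No treatment effect is read from these regions.

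Mitochondrial peaks, which no comparison used, covered a mean of 6058.5 bp in 12 somites atRA (6054 and 6063), above the 5879 and 5912 bp of DMSO. At 24 hpf they covered 5804 and 5710 bp in atRA and 5722 and 5891 bp in DMSO, which overlap. At 80% epiboly they covered 6228 and 5462 bp in atRA and 5932 and 6201 bp in DMSO. Replicates of either group there lay farther apart than the 12 somites groups did. Background pileup at 12 somites was 1.6 and 1.44 in atRA and 0.69 and 1.15 in DMSO, and its part was not tested.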

How the results depend on the processing

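Counts followed the limits chosen, and the shares in DMSO kept their direction under all alternatives run. Opened and closed regions numbered 85 and 90 with top sets of 20000, 4365 and 6260 with 80000, 5073 and 5704 where absence meant outside the best 50000, 171 and 570 where it meant no peak in the list, and 5439 and 45650 when every peak passing a q-value of 0.01 was used, so that lists kept their unequal lengths. Reciprocal overlap of 50% gave 2821 closed regions. Regions opened and closed in both treatments numbered 20 and 30, 1136 and 1107, 1609 and 1553, 49 and 96, and 1127 and 4132 in the same order of settings.

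Leaving out each library in turn gave 1946 to 3545 opened, 2908 to 3708 closed, 268 to 350 opened in both and 329 to 386 closed in both. For 24 hpf DMSO against the 6 earlier libraries it gave 19.1 to 42.2 points for opened and -39.5 to -25.7 for closed regions; without one 24 hpf DMSO library the exact p was 0.143, the smallest possible. The unadjusted exact p of that contrast, 0.0357 as reported, rose above 0.05 with the q-value limit, at 10.2 points (exact p = 0.607) and -24.9 points (exact p = 0.25). For closed regions it also did with top sets of 20000 (-49.3 points, exact p = 0.0714) and with no peak in the list (-37.5 points, exact p = 0.0714); the cause was not tested. The difference between the DMSO stages ranged from 23.8 to 50.6 points for opened and from -77.8 to -12.0 points for closed regions, the last with the q-value limit.

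Replicate differences correlated at -0.0297 between the atRA groups and 0.0324 between the DMSO groups. These values show no pairing by number between the stages, but they cannot exclude it. The atRA and DMSO libraries of the same stage were not compared in this way. With the replicate block the contrasts were 40.3 and -37.0 points (exact permutation p = 0.0625, the smallest possible). The differences between the DMSO stages kept their values, with an exact permutation p of 0.5 in place of 0.333 for both directions. No count changed.

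The comparisons by position in chromosomes were chosen after seeing the data; they kept their sign in the 14 alternatives run for each, at 0.00828 to 4.68 points for opened and -4.62 to -0.427 points for closed regions. Depth limits the lists: a missing peak means below the caller's threshold.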

Other observations

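Of the 1068 opened regions, 57 had no peak in any of the 8 lists before 24 hpf, including the 80% epiboly DMSO lists of 433132 and 439137 peaks. For these regions, too, an absent peak cannot be told apart from sequence that those embryos lacked or that reads could not be mapped to. A group of 33 of them stood among the 100 opened regions of best rank. Many lay close together, with 42 of the 57 in 10 windows of 100 kb with at least 3 of them each. By chromosome, 16 were on chromosome 4, 8 on chromosome 15, 6 on chromosome 7, 6 on chromosome 1 and 5 on chromosome 20. The same counts were not made over all regions. The 24 hpf DMSO libraries, which the choice did not use, both had a peak at 46 of the 57 (80.7%). Of all regions, 93.8% had a peak in replicate 1 and 95.8% in replicate 2 of that group. These are shares for each list alone. The share of all regions with a peak in both lists can only be equal or lower, and it was not computed. Both libraries had a top-50000 peak at 20 of the 57 (35.1%), against 35.3% of all opened regions and 49.1% of all regions.

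Of the 1520 closed regions, 186 had no peak in any of the 4 lists of 24 hpf. Both 12 somites DMSO libraries had a top-50000 peak at 95 of the 186 (51.1%). That share was near the 45.8% of all closed regions and the 44.3% of all regions. In 44 of the 186 both 80% epiboly DMSO lists also lacked a peak, and 25 of those 44 had one in at least 1 list of 80% epiboly atRA, 6 of them in the top set of replicate 1. In the reverse case, 36 of the 186 lacked a peak in both 80% epiboly atRA lists, 17 of them had one in at least 1 list of 80% epiboly DMSO, and none was in the top set of replicate 1. Of all regions, 2.37% had no peak in either 80% epiboly DMSO list and 4.96% had none in either 80% epiboly atRA list. The counts of 186, 44, 25, 36 and 17 were not made over all regions, so no trait of closed regions is read from them. The 80% epiboly atRA lists are shorter (351548 and 154354 peaks), and the part of list length in these counts was not tested.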
